A study of Mus musculus with 6 samples.

Results

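The genes described here are 10 components of the ISG15 conjugation system and of the interferon-linked poly(ADP-ribose) polymerase (PARP) group: Isg15, Usp18, Uba7, Ube2l6, Herc6, Parp9, Dtx3l, Parp14, Parp12 and Parp10. They were taken by gene symbol from a table of 52636 genes, and each symbol matched 1 row. RNA was sequenced from untreated MC38 cells, which are cultured mouse colon tumour cells, in 6 libraries whose genotype labels all begin with M1E5. The sources disagree on whether the RNA came from culture or from sorted tumour cells, as given with the processing. The labels gave 3 libraries as M1E5 WT and 3 as M1E5 Zfx F5, and per the design text Zfx, a zinc finger transcription factor gene of the X chromosome, was targeted by transfecting CRISPR ribonucleoprotein. F5 is the single edited line among these samples, so any other difference of that line from WT enters every comparison, and the edit and the line cannot be told apart. Libraries held 18876673 to 24241864 reads, and a level is given in reads per 1000000 reads of the library (CPM).

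ISG15 is a small ubiquitin-like protein that interferon induces and that is joined to other proteins by an enzyme cascade parallel to that of ubiquitin. Uba7 is its activating enzyme (E1), Ube2l6 its conjugating enzyme (E2) and Herc6 the main ligase (E3) in mouse cells, while Usp18 removes ISG15 from its targets and also restrains signalling at the type I interferon receptor. PARP proteins transfer ADP-ribose from NAD+. Parp9 works in a complex with Dtx3l, a ubiquitin ligase of the Deltex family, and Parp14, Parp12 and Parp10 are mono-ADP-ribosyl transferases for which antiviral or interferon-linked roles are known.

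Of the 10 genes, 9 passed the filter on low values (a mean log2 level of at least 0 over the 6 libraries) and were tested. In the libraries labelled Zfx F5, 7 of the 9 were higher and 0 were lower at a limma adjusted p under 0.05, and Parp12 and Parp10 did not pass. Over all 12279 tested genes 72.9% passed in either direction, 37.0% higher and 35.9% lower, so a call alone says little in this comparison. At the same adjusted p and a log2 difference of at least 1, 5 of the 9 were higher, against 4.11% of all tested genes. The median log2 difference of the 9 was 1.11, and that of all tested genes was 0.02. None of the 9 was lower at that adjusted p and a log2 difference of -1 or less, against 5.99% of all tested genes. The groups did not overlap for 7 of the 9, all with the libraries labelled Zfx F5 above, while this was so for 37.8% of all tested genes in that direction and 74.3% in either. Uba7 had a WT mean below the filter and entered the test through its level in the libraries labelled Zfx F5, as a member high in a single group would, so these counts are a description. Usp18, the member left out by the filter, is given below with its reads.

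The starting regions of 6 of the genes could be taken from RefSeq promoter sequences (build GRCm38.p6, 250 bases before to 50 bases after the start): Isg15, Uba7, Ube2l6, Herc6, Dtx3l and Parp12. Usp18, Parp9, Parp14 and Parp10 had no matched entry. Each was searched on both strands for the core of the interferon-stimulated response element (GAAA, any 2 bases, GAAA), for TTCNNNGAA, the core of the gamma-activated site, and for AGGCCT, a core of the ZFX motif. The promoters of Isg15, Dtx3l and Parp12 are shown because Isg15 holds the repeated interferon element, Dtx3l stands for the Parp9 locus, and Parp12 is a member that did not pass the test. Capitals mark the motif matches, and each sequence runs 5′ to 3′ on the gene's strand.
Isg15 (chr4:156200769-156201068, minus strand): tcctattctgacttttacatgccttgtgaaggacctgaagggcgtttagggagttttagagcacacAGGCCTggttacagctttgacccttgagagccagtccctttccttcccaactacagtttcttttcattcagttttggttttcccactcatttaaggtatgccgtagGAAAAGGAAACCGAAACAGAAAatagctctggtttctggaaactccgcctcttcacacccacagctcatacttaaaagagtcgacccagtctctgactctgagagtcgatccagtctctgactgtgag
Dtx3l (chr16:35938978-35939277, minus strand): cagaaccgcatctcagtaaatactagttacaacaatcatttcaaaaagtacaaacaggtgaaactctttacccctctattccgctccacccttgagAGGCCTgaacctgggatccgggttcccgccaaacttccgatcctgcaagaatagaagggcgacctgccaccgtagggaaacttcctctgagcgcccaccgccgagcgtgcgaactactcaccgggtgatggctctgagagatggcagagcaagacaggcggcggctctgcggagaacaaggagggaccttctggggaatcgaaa
Parp12 (chr6:39118300-39118599, minus strand): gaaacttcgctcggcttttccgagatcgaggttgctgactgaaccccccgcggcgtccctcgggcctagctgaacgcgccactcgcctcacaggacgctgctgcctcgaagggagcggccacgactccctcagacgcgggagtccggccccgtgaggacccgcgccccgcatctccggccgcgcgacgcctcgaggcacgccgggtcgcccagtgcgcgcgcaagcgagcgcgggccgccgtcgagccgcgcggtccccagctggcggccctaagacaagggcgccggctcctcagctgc
The Isg15 promoter held 3 matches of the response element core, which overlap in a single run from 78 to 57 bases before the start. It also held AGGCCT from 184 to 179 bases before the start. At least 1 match of the response element core was found in 3.44% of 32851 promoters of the same length, and 5 of them held 3 or more. Of the other 5 member promoters none held it, and TTCNNNGAA, present in 8.30% of all promoters, was in none of the 6. AGGCCT, present in 10.3% of all promoters, lay in the Dtx3l promoter from 154 to 149 bases before the start. The Parp12 promoter had 46 CG dinucleotides and 73.7% G and C, while the other 5 had 2 to 17 CG dinucleotides and 44.7% to 59.7% G and C. The medians over all promoters were 7 and 52.7%. A match is a description of these letters and was not tested against binding.

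Isg15, the ubiquitin-like modifier itself (ENSMUSG00000035692, mm10 chromosome 4, 156199424 to 156200818, minus strand), measured 6.42, 6.73 and 5.90 CPM in the WT libraries and 27.3, 27.5 and 29.5 CPM in the libraries labelled Zfx F5. All 3 libraries labelled Zfx F5 lay above all 3 WT libraries, with 543 to 671 against 127 to 150 reads. The log2 difference was 2.14 (SE 0.083, 95% confidence interval 1.97 to 2.31), a 4.41-fold rise (limma adjusted p = 2.24e-20). Isg15 ranked number 93 of the 12279 tested genes from the largest rise.

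The enzymes that load ISG15 onto proteins were all higher in the libraries labelled Zfx F5, by very different factors. Ube2l6, the E2 (ENSMUSG00000027078, chromosome 2, 84798828 to 84810335, plus strand), had the largest rise among the tested members, from 2.57, 1.70 and 2.27 CPM in WT to 19.6, 18.4 and 16.6 CPM. Its log2 difference was 3.06 (SE 0.131, interval 2.79 to 3.33), an 8.34-fold rise (limma adjusted p = 3.73e-18). Uba7, the E1 (ENSMUSG00000032596, chromosome 9, 107975505 to 107984060, plus strand), was rare in both groups, at 0.899, 0.848 and 0.660 CPM in WT and 3.02, 2.63 and 2.81 CPM in the libraries labelled Zfx F5. These levels rest on 16 to 21 reads per WT library and 52 to 64 reads in the others, and the groups did not overlap. The log2 difference of Uba7 was 1.78 (SE 0.222, limma adjusted p = 2.03e-08), and the ratio of pooled CPM was 3.54 (95% counting interval 2.60 to 4.91). Uba7 passed the filter only through the libraries labelled Zfx F5 (mean log2 level -0.27 in WT and 1.51 in the others). These values are therefore a description. With 5 CPM added to every level, the log2 difference of Uba7 was 0.43, a value that such an addition shrinks by construction for a gene this low. Herc6, the mouse E3 (ENSMUSG00000029798, chromosome 6, 57581000 to 57664632, plus strand), went from 6.25, 5.88 and 5.61 CPM to 11.0, 10.9 and 10.3 CPM. Its groups did not overlap, and its log2 difference of 0.86 (SE 0.101, interval 0.65 to 1.06; limma adjusted p = 6.85e-09) was the smallest of these enzymes.

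Usp18, the protease that takes ISG15 off again (ENSMUSG00000030107, chromosome 6, 121245906 to 121270917, plus strand), was close to the detection limit in WT. It had 3, 4 and 4 reads in the WT libraries, or 0.128, 0.212 and 0.165 CPM, where 3 reads correspond to 0.124 to 0.159 CPM. In the libraries labelled Zfx F5 it had 76, 68 and 90 reads, or 3.59, 3.44 and 3.96 CPM. The ratio of pooled CPM was 22.2 (95% counting interval 12.2 to 45.1), from 11 and 234 reads, so its size is loosely bounded although the groups lie far apart. With the filter set at a mean log2 level of -1, a setting chosen after seeing the data, Usp18 entered the test with a log2 difference of 4.20 (SE 0.283, interval 3.62 to 4.78; limma adjusted p = 3.48e-14). Usp18 passed that filter only through its level in the libraries labelled Zfx F5 (mean log2 level -2.32 in WT and 1.88 in the others), so it had to differ to be tested, and this p adds no support to the values above.

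**Figure D1:**
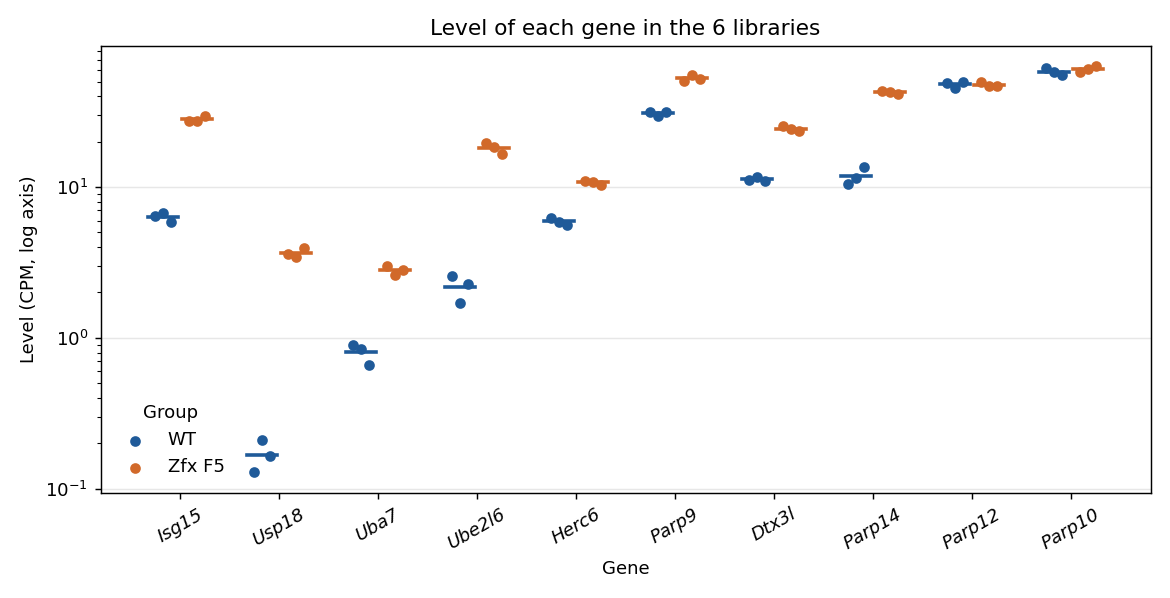
Level in CPM (log axis) of the 10 genes in each library, with WT libraries in blue and libraries labelled Zfx F5 in orange; points are libraries and short lines are group means. The groups are apart for 8 genes, from Usp18 with 3 or 4 reads per WT library to Parp9 near 30 CPM in WT, and overlap for Parp12 and Parp10. Over all tested genes the groups were apart for 74.3%, and for 37.8% with the libraries labelled Zfx F5 above. Usp18 was below the main filter, and Uba7 passed it only through the libraries labelled Zfx F5.

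The genes of the Parp9 complex lie next to each other and were both higher in the libraries labelled Zfx F5. Parp9 (ENSMUSG00000022906, chromosome 16, 35938470 to 35972605, plus strand) measured 31.3, 29.6 and 31.4 CPM in WT and 50.4, 55.2 and 52.3 CPM in the others. Its log2 difference was 0.77 (SE 0.054, interval 0.66 to 0.88; limma adjusted p = 5.50e-14), or 1.71-fold. Dtx3l, its ubiquitin ligase partner (ENSMUSG00000049502, chromosome 16, 35926511 to 35939151, minus strand), measured 11.1, 11.7 and 10.9 CPM in WT and 25.3, 24.1 and 23.6 CPM in the others. The log2 difference of Dtx3l was 1.11 (SE 0.074, interval 0.96 to 1.26; limma adjusted p = 1.72e-14), or 2.16-fold. For both genes the groups did not overlap. They are annotated head to head on opposite strands and share 367 exon bases, 8.96% of the Parp9 length and 13.9% of the Dtx3l length. If the libraries do not mark strand, as holds for the preparation kit in the labels' protocols, reads from that stretch cannot be assigned to either gene.

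Parp14, a macrodomain-bearing mono-ADP-ribosyl transferase (ENSMUSG00000034422, chromosome 16, 35832874 to 35871544, minus strand), lies 55.0 kb from Dtx3l and had a larger difference than Parp9 or Dtx3l. It measured 10.5, 11.5 and 13.7 CPM in WT and 43.1, 43.0 and 41.7 CPM in the libraries labelled Zfx F5. The lowest of the latter was far above the highest WT library, and the log2 difference was 1.85 (SE 0.077, interval 1.69 to 2.00; limma adjusted p = 3.39e-18), or 3.59-fold. The nearest protein-coding genes outside the group did not share one direction. On one side Hspbap1, which encodes a protein that binds heat shock protein 27, fell from 44.3 to 32.5 CPM (log2 difference -0.45, SE 0.055, limma adjusted p = 1.62e-08). Beyond it Dirc2, a membrane transporter gene, fell from 47.3 to 7.78 CPM (log2 difference -2.60, SE 0.075, limma adjusted p = 1.21e-23). On the other side Kpna1, a nuclear import receptor gene, rose from 136 to 165 CPM (log2 difference 0.29, SE 0.037, limma adjusted p = 3.04e-08), and Wdr5b, at 3.15 and 2.68 CPM, did not pass (limma adjusted p = 0.224).

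**Figure D2:**
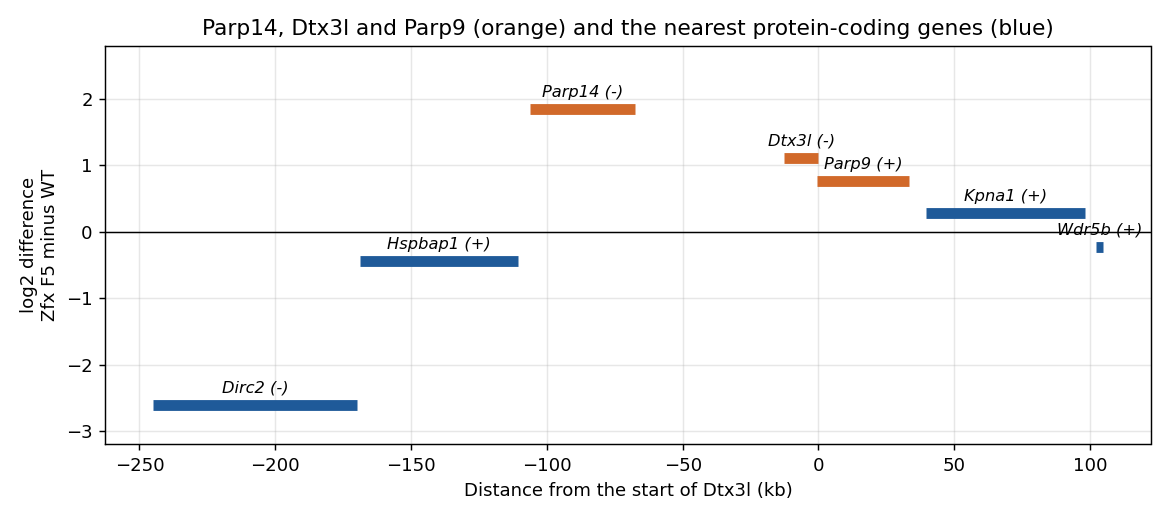
Distance in kb from the start of Dtx3l against the log2 difference (Zfx F5 minus WT); each bar spans an annotated gene, with its strand in brackets. Parp14, Dtx3l and Parp9 lie between 0.77 and 1.85, and Dirc2 and Hspbap1 on the Parp14 side lie at -2.60 and -0.45.

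Parp12 and Parp10, per kb of exon the most abundant members in WT, showed no difference that passed the test. Parp12, a mono-ADP-ribosyl transferase with CCCH zinc fingers (ENSMUSG00000038507, chromosome 6, 39086410 to 39118349, minus strand), measured 49.0, 45.4 and 49.4 CPM in WT and 49.4, 47.0 and 47.1 CPM in the libraries labelled Zfx F5. The groups overlapped, and the log2 difference was -0.0027 (SE 0.051, interval -0.11 to 0.10; limma adjusted p = 0.965), with a sign that turned with median centring (0.025). Parp10, a mono-ADP-ribosyl transferase with ubiquitin-binding motifs (ENSMUSG00000063268, chromosome 15, 76231174 to 76243441, minus strand), measured 61.4, 58.1 and 55.0 CPM in WT and 58.0, 60.9 and 63.3 CPM in the others. These groups overlapped too, with a log2 difference of 0.06 (SE 0.049, interval -0.04 to 0.16; limma adjusted p = 0.253). With 857 to 1439 reads per library behind both genes, the upper ends of these intervals are 1.07-fold for Parp12 and 1.12-fold for Parp10.

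**Figure D3:**
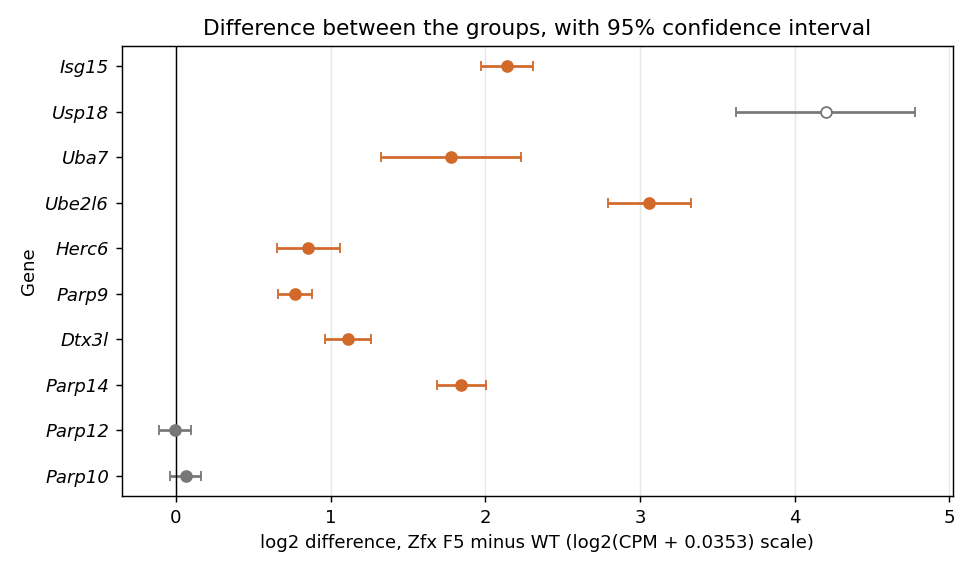
Log2 difference (Zfx F5 minus WT) of each gene with its 95% confidence interval from limma; orange marks genes that passed, grey filled points those that did not, and the open point is Usp18, tested at the lower filter. Parp12 and Parp10 have intervals that include 0, and the others lie between 0.77 (Parp9) and 4.20 (Usp18).

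The members therefore stood in a different order in the groups. Per kb of exon length, Parp10 (17.2 CPM per kb) and Parp12 (14.8) led in WT, followed by Isg15 (8.40), Parp9 (7.52) and Dtx3l (4.25). Parp14 (1.60), Ube2l6 (1.40) and Herc6 (1.24) came next, and the libraries of Ube2l6 overlapped with those of both of its neighbours in this order. Uba7 (0.251) and Usp18 (0.0951) were lowest. In the libraries labelled Zfx F5, Isg15 led at 37.2 CPM per kb, ahead of Parp10 (17.9), Parp12 (14.8), Parp9 (12.9), Ube2l6 (11.7), Dtx3l (9.20) and Parp14 (5.74). Herc6 (2.25), Usp18 (2.07) and Uba7 (0.883) were lowest there. In that order the libraries of Parp9 and Ube2l6 overlapped, as did those of Herc6 and Usp18, and the other neighbours did not. Herc6 shares 1269 exon bases, 26.6% of its length, with Gm45193, a transcript of the same strand with 0 reads in every library. Whether reads of that stretch were counted is not known, so the level of Herc6 per kb may be too low in both groups.

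Ratios within each library show how unequal the rises were. The log2 ratio of Parp9 to Dtx3l lay between 1.34 and 1.52 in the WT libraries and between 0.99 and 1.20 in the libraries labelled Zfx F5, a mean change of -0.34. The ratio of Parp14 to Parp9 moved from a mean of -1.38 ± 0.19 (SD, n = 3) to -0.30 ± 0.07 (SD, n = 3). The ratio of Ube2l6 to Uba7 moved from 1.39 ± 0.39 to 2.67 ± 0.12 (SD, n = 3 each), with all libraries of one group above the other. Against its ubiquitin counterpart Ube2l3, the ratio of Ube2l6 rose by 3.35 on the log2 scale, and that of Uba7 to the ubiquitin E1 gene Uba1 by 1.18. With 0.5 CPM added these rises were 3.10 and 0.75, so the size for the rare Uba7 depends on the amount added. The ratio of Usp18 to Isg15 was 2.06 higher in log2, a value that fell to 0.58 with 0.5 CPM added, given the few WT reads of Usp18. The groups did not overlap for any of these 6 pairs, and each had a 2-sided exact permutation p of 0.1 (Benjamini-Hochberg adjusted over the 6 pairs, 0.1), which is the lowest p that 20 assignments of 6 libraries can give. Single genes did not overlap for 74.3% of those tested, and no such share was taken for pairs. Usp18 and Uba7 passed a filter only through the libraries labelled Zfx F5, so the ratios that hold either gene are a description.

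**Figure D4:**
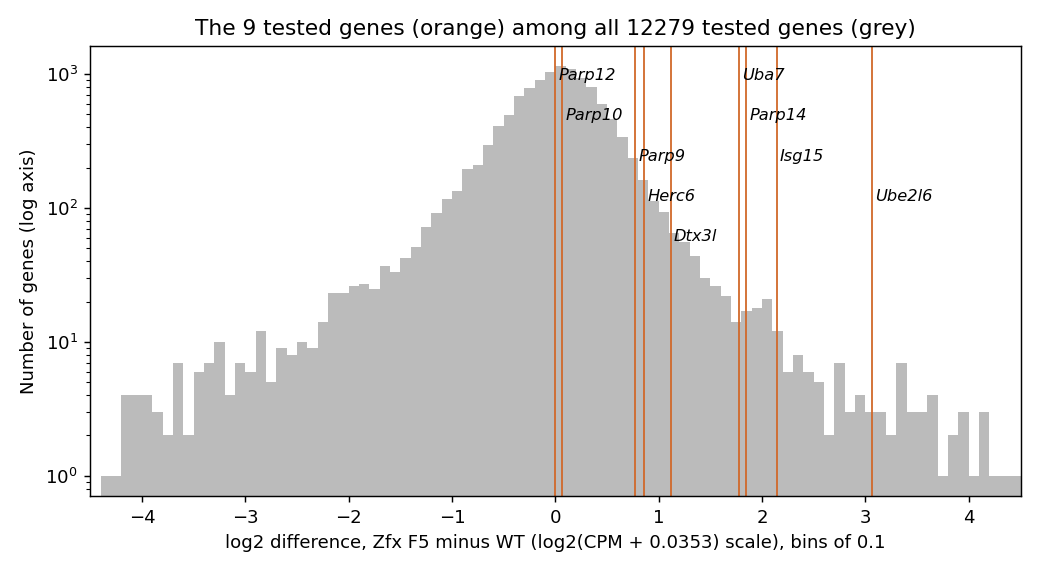
Number of genes (log axis) by log2 difference, Zfx F5 minus WT, in bins of 0.1, for all 12279 tested genes (grey), with the 9 tested members as orange lines; the axis is limited to the range around them. Parp12 and Parp10 lie at the centre of the distribution, and Uba7, Parp14, Isg15 and Ube2l6 lie in its upper tail.

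Other genes of the ISG15 pathway went in both directions. Of 12 listed, 10 were tested, of which 4 rose, 5 fell and 1 did not pass, with a median log2 difference of -0.11. Over all tested genes 37.0% rose and 35.9% fell past the threshold, so such a split says little about the list. Itgb2, which encodes the beta chain of the integrin LFA-1, a receptor reported for extracellular ISG15, rose from 19.1 to 22.8 CPM in WT to 42.5 to 46.3 CPM (log2 difference 1.10, SE 0.064, limma adjusted p = 1.00e-15). The following were named after their values were seen. Itgal, the alpha chain of the same integrin, lay below the filter, with 20 WT reads in all against 141, which gave a pooled ratio of 7.36 (95% counting limits 4.59 and 12.4). Ube2e1, another E2 able to carry ISG15, fell from 39.6, 41.4 and 42.0 CPM to 21.7, 21.5 and 20.4 CPM (log2 difference -0.95, SE 0.059, limma adjusted p = 3.18e-15). Arih1, a ligase gene that can take the place of an ISG15 E3, fell from a mean of 203 to 157 CPM (log2 difference -0.37, SE 0.036, limma adjusted p = 1.31e-10). Usp14, a deubiquitinase that can also bind ISG15, fell as well (log2 difference -0.24, SE 0.036, limma adjusted p = 7.24e-07), while Usp16 did not pass (98.2 and 98.7 CPM, limma adjusted p = 0.876). The rest of the tested list also went both ways past the threshold. Usp2, Usp5 and Usp21 rose (log2 differences 0.86, 0.45 and 0.25), and Trim25 and Skp2 fell (-0.38 and -0.24).

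The ubiquitin relatives of these enzymes moved in both directions. Of 11 listed, 10 were tested, and 3 rose, 4 fell and 3 did not pass, with a median log2 difference of 0.01. Among all tested genes 37.0% rose and 35.9% fell, so this split too says little about the list. Herc3, a HERC ligase gene, rose from 2.18, 2.44 and 2.52 CPM to 7.60, 6.12 and 5.89 CPM (log2 difference 1.44, SE 0.146, limma adjusted p = 2.81e-10). Uba1 rose from 284, 291 and 292 CPM to 446, 438 and 433 CPM (log2 difference 0.60, SE 0.031, limma adjusted p = 2.63e-17). Ube2l3 fell from 160, 147 and 153 CPM to 124, 125 and 127 CPM (log2 difference -0.29, SE 0.038, limma adjusted p = 5.95e-08).

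The remaining PARP genes were split as well. All 12 listed were tested, and 4 rose, 6 fell and 2 did not pass, with a median log2 difference of -0.05. The shares over all tested genes were 37.0% higher and 35.9% lower, so this split says little about the list. Parp16, a mono-ADP-ribosyl transferase of the endoplasmic reticulum, had the largest change, from 9.24, 10.1 and 9.69 CPM in WT to 2.17, 2.38 and 1.76 CPM (log2 difference -2.19, SE 0.138, limma adjusted p = 4.57e-15). The other 11 had log2 differences between -0.99 (Parp6) and 0.53 (Parp2), both past the threshold and named after their values were seen. Zc3hav1, the zinc finger antiviral protein gene also called Parp13, fell from 196 to 175 CPM (log2 difference -0.16, SE 0.036, limma adjusted p = 1.99e-04), and Parp1, the abundant nuclear enzyme of DNA repair, did not pass (339 and 341 CPM, limma adjusted p = 0.826). These genes were also named after their values were seen.

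**Figure D5:**
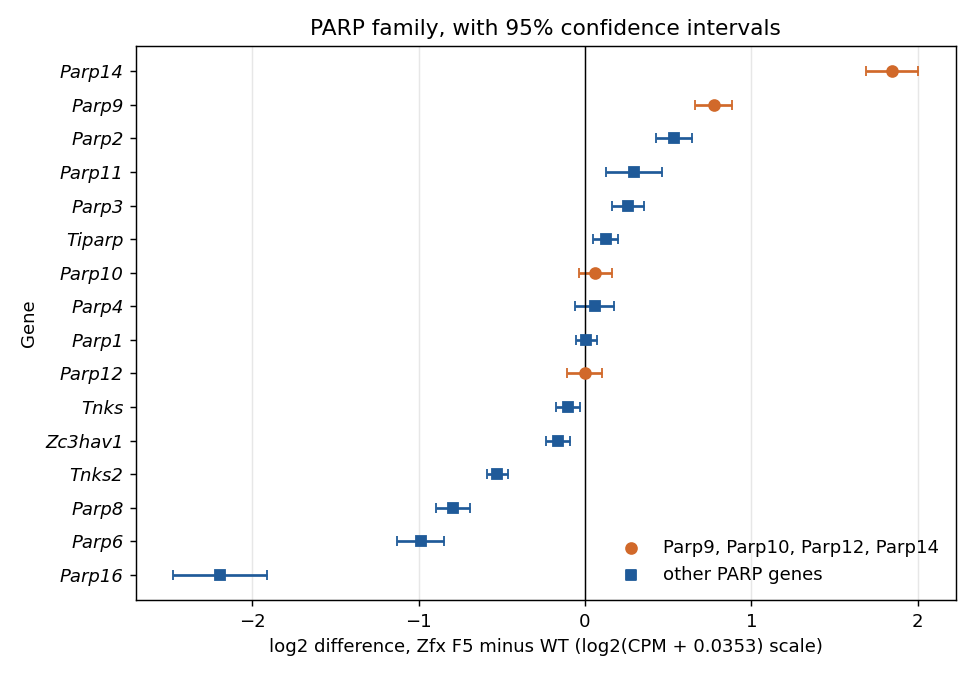
Log2 difference (Zfx F5 minus WT) with 95% confidence interval for Parp9, Parp10, Parp12 and Parp14 (orange circles) and the 12 other PARP genes (blue squares), ordered by size. Parp14 at 1.85 and Parp9 at 0.77 lie highest, Parp10 and Parp12 near 0, and Parp16 lowest at -2.19.

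Genes that remove or read ADP-ribose were also mixed, with 3 of 8 tested higher, 4 lower and 1 not past the threshold, out of 9 listed. The shares over all tested genes were 37.0% higher and 35.9% lower, so here too the split says little about the list. Macrod1, a hydrolase of mono-ADP-ribose, fell from 2.61, 2.70 and 2.10 CPM to 0.802, 0.405 and 1.10 CPM (log2 difference -1.74, SE 0.280, limma adjusted p = 4.33e-06), a change that rests on 163 and 50 pooled reads. Macrod1 passed the filter only through its WT level (mean log2 level 1.32 against -0.42), so these values too are a description. Of the 4 other Deltex genes, relatives of Dtx3l, 3 were tested and moved little. Dtx2 rose from 27.7 to 33.4 CPM in the mean (log2 difference 0.27, limma adjusted p = 1.13e-04). Dtx4 fell from 119 to 99.9 CPM (log2 difference -0.25, limma adjusted p = 8.97e-07) and Dtx3 from 52.9 to 45.1 CPM (log2 difference -0.23, limma adjusted p = 0.00162).

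Upstream of the members, the genes of interferon receptors, kinases and transcription factors went both ways. Of 15 signalling genes 7 rose and 8 fell, with a median log2 difference of -0.15. Among all tested genes 37.0% rose and 35.9% fell. The count of signalling genes that fell was 5 without Zfx F5 replicate 2 or without Zfx F5 replicate 3. Stat2, a signal transducer of type I interferon, went from 7.97 to 25.7 CPM (log2 difference 1.69, SE 0.088, limma adjusted p = 5.52e-17). Irf9, a DNA-binding factor of the same response, went from 7.53 to 20.1 CPM (log2 difference 1.42, SE 0.089, limma adjusted p = 4.38e-15). Irf7, itself an interferon-induced factor, went from 0.171, 0.477 and 0.701 CPM to 4.62, 5.77 and 5.85 CPM (log2 difference 3.67, SE 0.401, limma adjusted p = 1.13e-05). With a mean log2 level of -1.23 in WT and 2.44 in the others, Irf7 passed the filter only through the group where it was high, so its values are a description. Ifnar1, a chain of the type I interferon receptor named after its values were seen, fell from a mean of 109 to 66.2 CPM (log2 difference -0.72, SE 0.041, limma adjusted p = 4.64e-16). None of the 9 listed interferon genes passed the filter. Ifna2, Ifna4, Ifna5, Ifnk, Ifng, Ifnl2 and Ifnl3 had 0 reads in every library, which allows up to 0.124 to 0.159 CPM per library. Ifnb1 and Ifne had 0 reads in WT and 3 and 2 reads in all over the libraries labelled Zfx F5, which is too few for a fold.

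The genes whose 6 log2 levels, each taken relative to the WT mean, lay closest to those of Isg15 were Mn1, C1ra and Kyat3, at Euclidean distances of 0.14, 0.15 and 0.16 log2 units. Mn1, a transcriptional coregulator gene, had mean levels of 20.2 and 88.4 CPM, C1ra, a complement protease gene, 2.67 and 12.0 CPM, and Kyat3, a kynurenine aminotransferase gene, 7.06 and 30.0 CPM. Closest to Parp14 were Slco3a1, Lrrn4cl and Casz1, at distances of 0.17, 0.22 and 0.22. This likeness over 6 libraries is mostly the size of the difference between the groups.

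Some values of the whole series bear on these results. Zfx mRNA was higher, at 122 to 129 CPM in the libraries labelled Zfx F5 against 64.4 to 69.7 CPM in WT (log2 difference 0.89, SE 0.042, limma adjusted p = 3.47e-18). The level of the targeted gene could therefore not check the labels, and every direction given here rests on them. Of the 10 colon epithelial markers looked for, Epcam, Krt19, Krt20 and Muc2 had 0 reads in every library and 1, Cdh1, passed the filter and rose (0.848 to 2.10 CPM). Their summed level was 0.636 to 1.07 CPM in WT and 3.95 to 4.13 CPM in the libraries labelled Zfx F5. The 10 myeloid and dendritic cell markers summed to 11.0 to 13.6 CPM in WT and 25.7 to 27.8 CPM in the others. Of the 3 tested, 1 rose, Lyz2 (0.437 to 15.3 CPM), and 2 did not pass. The higher sum is thus largely Lyz2 and not the set of markers. Adgre1 and Flt3 had 0 reads and Ptprc at most 1 read in a library. Of 5 endothelial markers Pecam1 was tested and rose (8.79 to 26.1 CPM), their sum was 8.53 to 9.86 CPM against 24.2 to 28.5 CPM, and Kdr and Tek had 0 reads. Fibroblast markers summed to 1252 to 1285 CPM in WT and 3424 to 3552 CPM in the others, with 3 of 5 tested higher and 2 lower. The shares over all tested genes were 37.0% higher and 35.9% lower. Col3a1 went from 874 to 3335 CPM and Pi16 from 0.503 to 3.93 CPM, while Dcn went from 120.0 to 33.9 CPM and Pdgfra from 247 to 78.6 CPM. None of 6 T and NK cell markers or 3 B cell markers was tested, and their highest count in a library was 5 reads. Cdh1, Lyz2 and Pi16 passed the filter only through the libraries labelled Zfx F5. The part of these marker shifts in the results was not tested. In bulk RNA, fewer cells with a transcript and less of it per cell cannot be told apart.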

How the data were processed

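The deposited table holds log2 values, called normalized by the authors in the table's own name, for 52636 genes in 6 libraries, with 0 sample columns left unused. Builds named in the submitters' processing notes are GRCh38 and mm10. For the aligner, the counter and the normalization settings, the sources used here give nothing. Per the labels' protocols, libraries were made with Nextera XT, a kit that does not mark strand, and read as 50 bases from one end. The sources disagree on the RNA: the extract protocol has it from sorted tumour cells, the design text from culture, each with its own kit. The table's own name has in vitro, which goes with culture.

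Undoing the log2 and subtracting the shared floor of 0.0353 gave columns that sum to 1000000, so the deposited log2 values are log2(CPM + 0.0353). Levels came out as whole reads within 0.05 read for 100% of values up to 300 reads, and 1 read was worth 0.0413 to 0.0530 CPM. Libraries of a group differed by more than sampling noise (chi-square per gene 2.16 to 3.95). Limits and intervals from reads cover counting error only. The size column of the same table, another deposited quantity, equals the summed exon length and was used for levels per kb. Positions come from GENCODE M21, the annotation of mm10, and 52403 identifiers matched.

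The comparison used limma 3.58.1 in R 4.3.3: a linear model of group on the deposited log2 values of genes with a mean of at least 0 (12279), with trended and robust moderation, read 2-sided at a Benjamini-Hochberg adjusted p under 0.05 over all tested genes. The fit was also run on simulated counts with far fewer changed genes than were called here. That run checks the code, not the p-values of these data. Folds are taken from log2(CPM + 0.0353), which makes them too small for low genes. With 3 libraries a side, 0.1 is the lowest exact permutation p for any single gene. No source says whether a group's libraries were separate cultures, so a p-value here speaks of the spread among them alone, possibly a technical one. Replicates are numbered in accession order. Pooled ratios have exact Clopper-Pearson 95% intervals. The text names all members, Zfx, the genes of each list past the threshold with an absolute log2 difference of at least 1 (otherwise the 3 largest), the neighbours of the Parp9 locus and the 3 nearest profiles. Genes outside this rule are said to be so, apart from markers and gene pairs listed by name. A gene of the interferon signalling list that the rule would name is not reported here. The members, lists and tests were chosen with earlier results of these data known.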

Additional observations from a re-analysis of the deposited data

How the results depend on the processing

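The comparison was repeated with no filter, with filters at mean log2 levels of 2 and -1, with 0.5 or 5 CPM added, with TMM scaling or median centring, without trend and robust moderation, with voom weights on the recovered reads, and without each library in turn. The filter at -1 and the voom fit were added after seeing the data. Isg15, Uba7, Ube2l6, Herc6, Parp9, Dtx3l and Parp14 were higher and past the threshold under every one of these that could test them (Uba7 not at the filter of 2), and Parp10 and Parp12 under none. Uba7 passed the filter at 0, which most of these fits share, only through the libraries labelled Zfx F5. Its passing in those fits is a description. Parp12 turned sign with median centring (0.025), and its log2 difference ranged from -0.041 to 0.019 when each library was left out, so it has no stable direction. The count of members called higher was 6 to 8. The 8 came with no filter and with the filter at -1, where Usp18 enters. At -1 Usp18 passes only through the libraries labelled Zfx F5, so its call there adds no support. Over all genes, calls were 4036 to 4933 higher and 4042 to 4670 lower. The number of genes tested differed with the filter: 12279 at 0, 13268 at -1 and 52636 with none. These counts are therefore not shares, and at the filter of 0 the main fit called 37.0% of genes higher. TMM scaling gave 4231 higher and 4670 lower, and the stricter filter 4036 and 4042, so the order of the 2 directions is not stable. The planned count tests, edgeR and DESeq2, were not run, and the voom fit on the recovered reads was used in their place. No paired analysis was possible because the labels give no replicate numbers. The WT levels of Usp18 and Uba7, 3 to 21 reads per library, limit their fold changes.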
